A study of Mus musculus with 17 samples.

Results

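The genes Dnmt1, Dnmt3a, Dnmt3b, Dnmt3l, Uhrf1, Tet1, Tet2, Tet3 and Tdg, whose products write, copy or remove methyl groups on DNA, were followed across 17 RNA-seq libraries of mouse cells. They were chosen by name, each symbol matched 1 row of the deposited tables, and together they are 9 of 24015 counted genes. All cells came from CD-1 mice. Mouse embryonic fibroblasts (MEF), grown for 3 passages in MEF medium, gave 3 libraries. XEN cells, a stem cell line type of the extraembryonic endoderm, and iXEN cells, the XEN-like cells obtained from fibroblasts with the reprogramming factors OSKM, were first grown for 10 passages in ESC medium. They were then kept for 5 more passages either in ESC medium (XEN, 3 libraries; iXEN, 4 libraries) or in XEN medium (XEN, 3 libraries; iXEN, 4 libraries). The libraries carry numbers, 1 to 3 in MEF, 1, 2 and 7 in XEN and 1, 2, 6 and 9 in iXEN cells, and each library is named here by its group and number. Against MEF, the cell type, the medium and the passage number differ together and cannot be told apart. Nothing in the sources used here says whether the libraries of a group came from separate derivations, so p-values measure the spread between these libraries, which may be technical.

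DNA methylation in mammals sits mostly on cytosines of CG dinucleotides. DNMT3A and DNMT3B place it on unmethylated DNA, and DNMT3L, a relative without catalytic activity, stimulates them. DNMT1 copies it at replication onto the new strand, brought there by UHRF1, which binds hemimethylated sites. The TET enzymes oxidise 5-methylcytosine, and the glycosylase TDG cuts out the most oxidised forms, which base excision repair then replaces. Extraembryonic lineages of the mouse embryo, among them the endoderm that XEN cells stand for, are known to carry less DNA methylation than the embryo proper.

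Counts summed over genes ran from 20071567 to 45914262 per library, so that 3 counts were worth 0.0653 to 0.149 CPM (the usual scaling of counts to the library size) before TMM factors. All other CPM values given here include TMM factors. No pair of libraries within a group agreed within sampling noise. Summed CPM of 12 extraembryonic endoderm markers was 1565 to 2109 in MEF and 5151 to 84115 in the XEN and iXEN libraries. Summed CPM of 12 fibroblast markers was 36807 to 50791 in MEF, 7802 in XEN 1 in ESC medium, 2396 and 1981 in iXEN 2 and iXEN 9 in XEN medium, and at most 356 in the other 11 libraries. Libraries also differed in the balance of long and short transcripts. Genes with transcripts over 8000 bases stood above those under 1500 bases by a log2 deviation of 0.82 to 1.15 in MEF and 0.96 to 1.20 in iXEN 1, 2 and 9 in ESC medium, but by -1.70 in XEN 7 in ESC medium and -1.51 and -1.37 in iXEN 6 and 9 in XEN medium. Of the 9 genes, 4 have long transcripts (Tet1 14.369 kb, Tet3 10.904 kb, Dnmt3a 9.685 kb, Tet2 9.179 kb), and fits with a length correction are given for them.

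A gene is called here when its adjusted p in edgeR's quasi-likelihood test is under 0.05. Against MEF, calls were frequent among all tested genes: 46.7% of 14352 for iXEN cells in ESC medium, 25% of 14001 for XEN cells in ESC medium, 32.6% of 14438 for iXEN cells in XEN medium and 47.5% of 14390 for XEN cells in XEN medium. Split by direction, 20.8% were higher and 25.9% lower, 11.4% and 13.7%, 17.7% and 14.9%, and 23% and 24.5% in this order. The libraries of both groups did not overlap for 54.6%, 53.3%, 51.3% and 63.4% of genes. Among the 9 genes the calls were 3 higher and 1 lower, 1 higher and 1 lower, 2 higher and 1 lower, and 2 higher and 2 lower in the same order. Tdg did not pass the filter on low counts in any comparison. Dnmt3l passed it against MEF only where the iXEN libraries carried it, so its call there was to a large part fixed by the filter. It is 1 of the higher calls counted above for iXEN cells in each medium. The other 7 genes passed in every comparison. In XEN cells in ESC medium the 3507 calls over all genes moved to 372, 692 and 562 without MEF 1, 2 or 3 and to 6056 without XEN 2. In iXEN cells in XEN medium the 4708 calls moved to 1847, 2245 and 1842 without MEF 1, 2 or 3, and in XEN cells in XEN medium the 6830 calls moved to 3985 and 4084 without MEF 1 or 3.

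**Figure D1:**
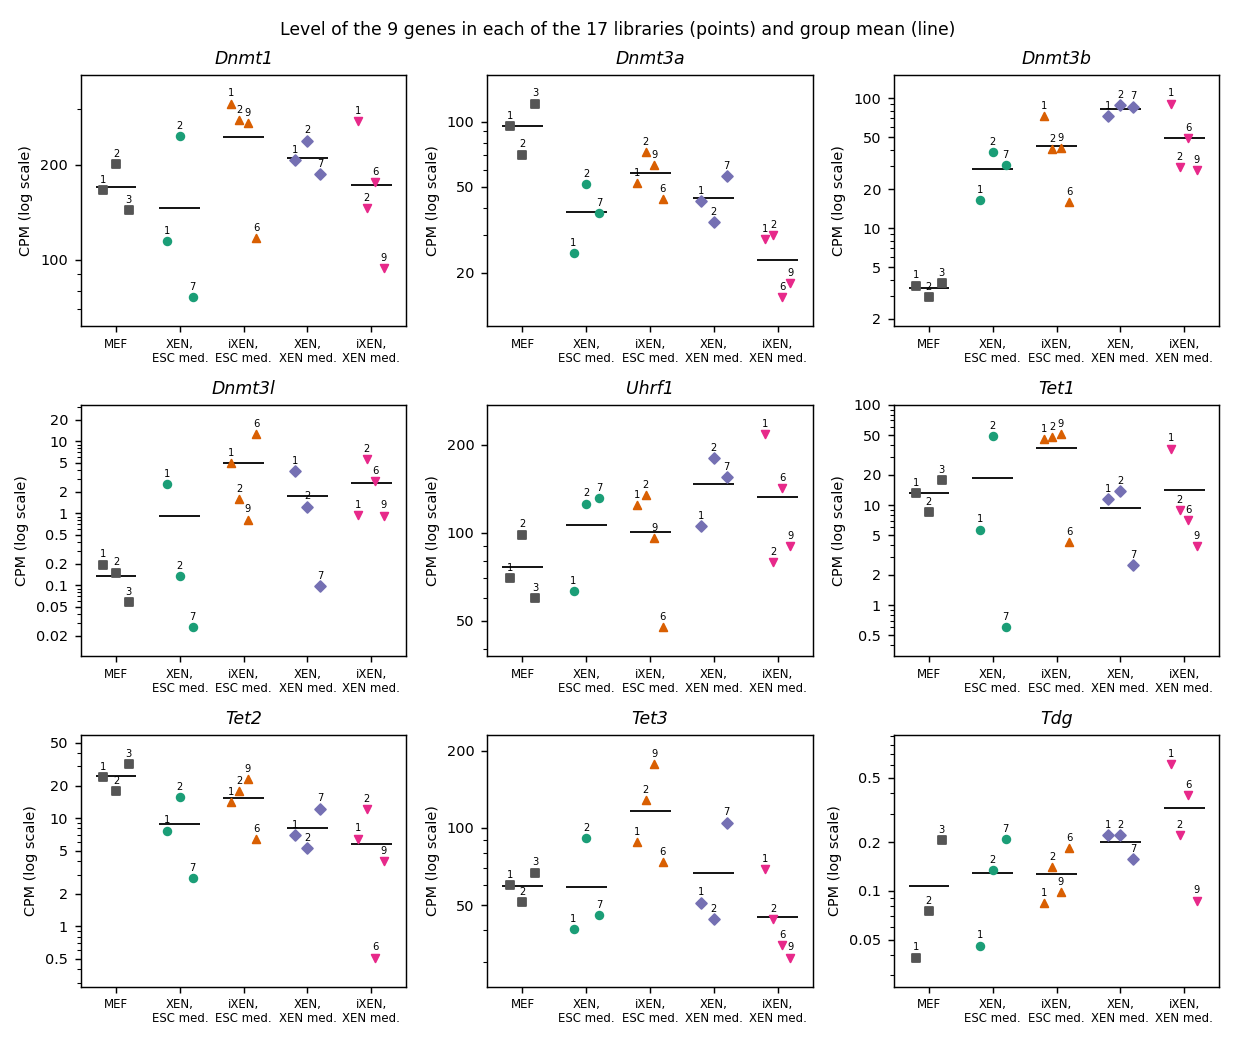
Level of each of the 9 genes in CPM (log axis) in every library, 1 panel a gene. Points are libraries labelled with their number, grouped as MEF, XEN and iXEN cells in ESC medium and XEN and iXEN cells in XEN medium, and the line is the group mean; Dnmt3b in all 14 XEN and iXEN libraries lies above the 3 MEF libraries, whereas every Dnmt1 group overlaps with MEF.

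In the counts as deposited, the pair of de novo enzymes changed in opposite directions against MEF. With the length correction, however, the fall of Dnmt3a stayed called only in iXEN cells in XEN medium. Dnmt3b was the 1 gene of the 9 whose level in all 14 XEN and iXEN libraries lay outside the MEF range. It measured 3.60, 2.93 and 3.74 CPM in MEF 1, 2 and 3. In ESC medium it measured 16.4, 38.5 and 30.8 CPM in XEN 1, 2 and 7, and 73.1, 40.6, 15.9 and 41.2 CPM in iXEN 1, 2, 6 and 9. In XEN medium it measured 72.5, 88.7 and 86.4 CPM in XEN 1, 2 and 7, and 91.2, 29.4, 49.2 and 28.1 CPM in iXEN 1, 2, 6 and 9. The lowest of the 14 was 4.25-fold above the highest MEF library. Dnmt3b rose against MEF in all 4 groups, by a log2 fold change of 3.67 (SE 0.505, adjusted p = 0.00052) in iXEN and 3.12 (SE 0.414, adjusted p = 0.00693) in XEN cells in ESC medium, and by 3.90 (SE 0.482, adjusted p = 0.00255) in iXEN and 4.64 (SE 0.198, adjusted p = 9.33e-05) in XEN cells in XEN medium. In linear means this was 8.34-fold in XEN and 12.5-fold in iXEN cells in ESC medium, and 24.1-fold in XEN and 14.4-fold in iXEN cells in XEN medium. With the length correction all 4 calls stood, with log2 fold changes of 3.77, 3.57, 4.33 and 4.92 in the order iXEN and XEN in ESC medium, then iXEN and XEN in XEN medium. The call in XEN cells in ESC medium was lost without MEF 1 (log2 fold change 3.28, adjusted p = 0.0516). In 11.5% of its 50-base windows the Dnmt3b transcript is identical to Dnmt3c, a close copy that is not analysed here, so some reads of that copy could count as Dnmt3b or be dropped.

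Because the cells were measured in bulk, more cells that make a transcript and more transcript per cell cannot be told apart in any of these values.

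Dnmt3a, the other de novo methyltransferase, was lower than in MEF. It measured 95.1, 70.4 and 121 CPM in MEF 1, 2 and 3. ESC medium gave 24.7, 51.4 and 37.9 CPM in XEN 1, 2 and 7, and 51.9, 72.3, 43.6 and 62.7 CPM in iXEN 1, 2, 6 and 9. XEN medium gave 42.8, 34.3 and 55.9 CPM in XEN 1, 2 and 7, and 28.5, 29.9, 15.4 and 17.95 CPM in iXEN 1, 2, 6 and 9. Of the 14 XEN and iXEN libraries, 13 lay below the lowest MEF library, and iXEN 2 in ESC medium was the exception. Dnmt3a fell by 0.70 on the log2 scale in iXEN cells (SE 0.241, adjusted p = 0.0426) and by 1.27 in XEN cells (SE 0.348, adjusted p = 0.0428) in ESC medium. In XEN medium it fell by 1.98 in iXEN cells (SE 0.317, adjusted p = 0.00511) and by 1.05 in XEN cells (SE 0.269, adjusted p = 0.0205).

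The fall of Dnmt3a was less stable than the rise of Dnmt3b, and its transcript is long. With the length correction its log2 fold change against MEF remained called in iXEN cells in XEN medium at -1.03 (adjusted p = 0.0118) and was -0.43 (adjusted p = 0.125), -0.21 (adjusted p = 0.586) and -0.24 (adjusted p = 0.362) in iXEN and XEN cells in ESC medium and XEN cells in XEN medium. The 3 MEF libraries had a long-minus-short deviation of 0.82 to 1.15, above all 3 XEN libraries in each medium. In iXEN cells in ESC medium the call was lost without MEF 1 (adjusted p = 0.0929) or MEF 3 (0.180) and without iXEN 1 (0.0917), iXEN 9 (0.0655) or iXEN 6 (0.054). In XEN cells in ESC medium it was lost without MEF 1 (0.156), MEF 2 (0.084), MEF 3 (0.154), XEN 1 (0.0702) or XEN 7 (0.0514). In XEN cells in XEN medium it was lost without MEF 1 (0.0652), MEF 3 (0.0743), XEN 1 (0.0516) or XEN 2 (0.0547). The antisense gene Dnmt3aos held 0 to 7 counts per library, and its reads cannot be told apart from those of Dnmt3a where the counting ignored strand.

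Compared per length, the balance of the de novo pair turned over. The ratio of Dnmt3b to Dnmt3a in CPM per kb of transcript was 0.0693 to 0.0935 in MEF. It was 1.49 to 1.82 in XEN and 0.818 to 3.16 in iXEN libraries in ESC medium, and 3.46 to 5.80 in XEN and 2.20 to 7.17 in iXEN libraries in XEN medium. Per length, Dnmt3a was thus the more abundant of the pair in all 3 MEF libraries and Dnmt3b in 13 of the 14 others. In CPM, without division by length, Dnmt3a stayed above Dnmt3b in every library in ESC medium except iXEN 1 (51.9 against 73.1 CPM). In XEN medium Dnmt3b was above Dnmt3a in CPM except in iXEN 2 (29.4 against 29.9 CPM). The part of the libraries' balance of long and short transcripts in this ratio was not tested.

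**Figure D2:**
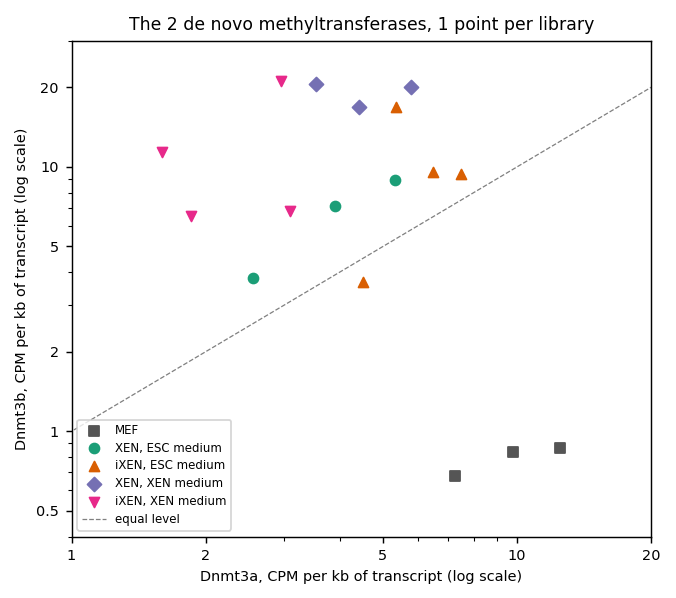
Dnmt3a against Dnmt3b in CPM per kb of transcript (both axes log) in the 17 libraries, with a dashed line where both are equal. The MEF libraries lie far on the Dnmt3a side with Dnmt3b to Dnmt3a ratios of 0.0693 to 0.0935, and 13 of the 14 XEN and iXEN libraries lie past the line, all but iXEN 6 in ESC medium with 0.818, up to a ratio of 7.17.

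Dnmt3l, the catalytically inactive partner of the de novo enzymes, was near 0 in MEF, with 5, 4 and 2 counts in MEF 1, 2 and 3. In XEN cells it held 56, 3 and 1 counts in libraries 1, 2 and 7 in ESC medium and 158, 45 and 5 counts in XEN medium. In iXEN cells it held 118, 68, 276 and 25 counts in libraries 1, 2, 6 and 9 in ESC medium and 25, 231, 94 and 32 counts in XEN medium. On the CPM scale all 8 iXEN libraries, at 0.816 to 12.7, lay above the MEF libraries at 0.0589 to 0.194, while XEN libraries 2 and 7 in ESC medium and 7 in XEN medium lay in or below the MEF range. Over the 14 XEN and iXEN libraries the highest level was 488-fold the lowest. The fitted log2 fold change against MEF was 5.26 (SE 1.15, adjusted p = 0.00591) in iXEN cells in ESC medium and 4.35 (SE 0.969, adjusted p = 0.0151) in XEN medium. The latter call was lost without MEF 1 (adjusted p = 0.0591), MEF 2 (0.061) or MEF 3 (0.0721). Dnmt3l passed the filter on low counts in both comparisons through its iXEN libraries. Both calls were therefore to a large part fixed by the filter and are no independent support. The overlapping gene Aire held 0 to 8 counts per library. At its highest, in iXEN 6 in ESC medium, Dnmt3l made up 19.9% of the summed CPM per kb of Dnmt1, Dnmt3a, Dnmt3b and Dnmt3l.

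The start regions of the pair of genes with the highest folds over MEF are shown because they differ in the density of CG dinucleotides, where DNA methylation mostly sits. Each is the RefSeq window on GRCm38.p6 from 250 bases before to 50 bases after the transcript start, written 5′ to 3′ with CG in capitals. The Dnmt3b window lies at chr2:153649199-153649498 on the plus strand and holds 30 CG, and the Dnmt3l window at chr10:78042037-78042336 on the plus strand, of its 3 the one with the most, holds 6 CG (the others 4 and 3), against a median of 7 over 32851 such windows. All 9 genes matched the RefSeq table, with 16 windows.
Dnmt3b: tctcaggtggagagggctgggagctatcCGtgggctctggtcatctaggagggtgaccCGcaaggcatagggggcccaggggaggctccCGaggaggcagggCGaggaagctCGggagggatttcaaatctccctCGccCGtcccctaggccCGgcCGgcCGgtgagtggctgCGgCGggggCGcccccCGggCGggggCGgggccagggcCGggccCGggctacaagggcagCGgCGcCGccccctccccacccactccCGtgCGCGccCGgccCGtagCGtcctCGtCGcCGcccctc
Dnmt3l: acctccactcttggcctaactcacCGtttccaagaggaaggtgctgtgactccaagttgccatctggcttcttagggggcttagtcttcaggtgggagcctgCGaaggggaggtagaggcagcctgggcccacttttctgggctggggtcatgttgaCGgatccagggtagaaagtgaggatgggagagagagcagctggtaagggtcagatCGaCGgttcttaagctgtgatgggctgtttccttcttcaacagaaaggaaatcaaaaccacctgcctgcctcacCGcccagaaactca

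The maintenance pair was the most abundant per length. Dnmt1, the copying methyltransferase, measured 166, 202 and 144 CPM in MEF 1, 2 and 3. In XEN 1, 2 and 7 under ESC medium the level was 115, 246 and 76.3 CPM, and in iXEN 1, 2, 6 and 9 it was 312, 278, 117 and 271 CPM. In XEN 1, 2 and 7 under XEN medium the level was 207, 239 and 187 CPM, and in iXEN 1, 2, 6 and 9 it was 276, 146, 176 and 94.3 CPM. Every group overlapped with MEF, with 7 of the 14 libraries above the MEF range and 4 below it. None of its 4 tests against MEF was called. The log2 differences were 0.55 (95% interval -0.19 to 1.29) and -0.17 (-1.25 to 0.90) in iXEN and XEN cells in ESC medium, and 0.07 (-0.72 to 0.87) and 0.35 (-0.14 to 0.84) in iXEN and XEN cells in XEN medium. With the length correction the last of these was called at 0.81 (adjusted p = 0.0346). Without iXEN 6 the first was called at 0.78 (adjusted p = 0.00555).

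Uhrf1, the reader of hemimethylated sites, measured 69.8, 98.6 and 59.9 CPM in MEF 1, 2 and 3. In ESC medium it measured 63.0, 126 and 131 CPM in XEN 1, 2 and 7, and 124, 135, 47.5 and 95.7 CPM in iXEN 1, 2, 6 and 9. In XEN medium it measured 105, 179.9 and 155 CPM in XEN 1, 2 and 7, and 218, 79.2, 142 and 89.9 CPM in iXEN 1, 2, 6 and 9. All 3 XEN libraries in XEN medium lay above MEF, and the other groups overlapped with it. Uhrf1 rose in XEN cells in XEN medium by 0.995 on the log2 scale (SE 0.293, adjusted p = 0.0327), and by 1.14 with the length correction (adjusted p = 0.0229). This call was lost without MEF 1 (adjusted p = 0.112), MEF 3 (0.109) or XEN 2 (0.075). In the other groups the log2 difference was 0.43 (95% interval -0.37 to 1.24) in iXEN and 0.55 in XEN cells in ESC medium and 0.85 (-0.03 to 1.72) for iXEN in XEN medium, none of them called. Without iXEN 2 and 9 in XEN medium, which carry fibroblast markers, the last was called at 1.26 (adjusted p = 0.0174). Without iXEN 6 the difference of iXEN cells in ESC medium was called at 0.67 (adjusted p = 0.0357). In 18.9% of its 50-base windows the Uhrf1 transcript matches another transcript, mostly the pseudogene Gm5648, which is not analysed here.

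The ratio of Uhrf1 to Dnmt1 in CPM per kb was 0.680 to 0.801 in MEF and 0.578 to 0.794 in iXEN libraries in ESC medium. It was 0.837 to 2.82 in XEN libraries in ESC medium, where library 7 gave the highest value, 0.835 to 1.36 in XEN libraries in XEN medium and 0.886 to 1.56 in iXEN libraries in XEN medium.

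Both maintenance genes are known to be transcribed mainly in dividing cells, so 15 genes of DNA replication were set beside them. Their summed CPM was 966 to 1418 in MEF, 1338 to 2426 in XEN and 1695 to 2611 in iXEN libraries in ESC medium, and 2382 to 3618 in XEN and 1685 to 3627 in iXEN libraries in XEN medium. Of the 15 genes, 8 rose in iXEN and 5 in XEN cells in ESC medium, 9 in iXEN and 12 in XEN cells in XEN medium, and 0 fell in any group. Over all genes tested, 20.8%, 11.4%, 17.7% and 23% were called higher and 25.9%, 13.7%, 14.9% and 24.5% lower. The median log2 fold change of the 15 was 1.13, 0.88, 1.36 and 1.41 in that order, beside 0.03, -0.03, 0.06 and 0.02 over all genes tested. Cdt1, which licenses origins, measured 16.0 ± 4.09 CPM in MEF (SD, n = 3) and rose by 2.27, 2.41, 2.72 and 2.46 (adjusted p = 0.000552, 0.00699, 0.00304 and 0.00119). The helicase subunit Mcm2 rose by 1.91 (adjusted p = 0.00033) and 1.56 (0.0127) in iXEN and XEN cells in ESC medium. Mcm3, of the same helicase, rose by 1.54 in iXEN cells in ESC medium (adjusted p = 0.000412) and by 1.58 (0.00881) and 1.77 (0.00214) in iXEN and XEN cells in XEN medium. Cdc6, a loader of the replicative helicase, rose by 2.23 in XEN cells in ESC medium (adjusted p = 0.0229), by 3.03 in iXEN cells in XEN medium (0.0128) and by 3.45 in XEN cells in XEN medium (0.00168). The part of cell division in the levels of Dnmt1 and Uhrf1 was not tested.

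The start regions of Dnmt1 and Uhrf1 are shown because each holds a word of the E2F family, whose factors act on replication genes. The words searched were TTTCCCGC, TTTCGCGC, TTTGCCGC and TTTGGCGC on both strands, and no matches overlapped. They were found in 2 of the 16 windows of the 9 genes and in 2.26% of all 32851 windows, and a match is a description and not a binding site. The words are in capitals, 5′ to 3′, in the RefSeq windows on GRCm38.p6 at chr9:20952574-20952873 on the minus strand for Dnmt1 and chr17:56304063-56304362 on the plus strand for Uhrf1. Each of these windows holds 33 CG, and the genes' other windows, 2 for Dnmt1 and 1 for Uhrf1, hold no such word.
Dnmt1: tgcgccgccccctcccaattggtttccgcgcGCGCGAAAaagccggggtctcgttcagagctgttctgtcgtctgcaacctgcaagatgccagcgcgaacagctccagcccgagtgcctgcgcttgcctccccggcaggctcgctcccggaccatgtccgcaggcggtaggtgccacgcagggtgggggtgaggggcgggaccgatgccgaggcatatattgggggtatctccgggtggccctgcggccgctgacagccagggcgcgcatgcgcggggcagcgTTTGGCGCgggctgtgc
Uhrf1: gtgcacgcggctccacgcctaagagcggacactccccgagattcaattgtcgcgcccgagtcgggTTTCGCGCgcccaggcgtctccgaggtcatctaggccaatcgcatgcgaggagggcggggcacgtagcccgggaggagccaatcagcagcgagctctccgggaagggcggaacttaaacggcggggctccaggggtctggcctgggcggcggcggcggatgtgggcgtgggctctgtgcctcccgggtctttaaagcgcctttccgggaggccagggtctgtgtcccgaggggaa

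Among the demethylation enzymes the results were less uniform. Tet3, the TET enzyme best known from the oocyte and the zygote, measured 59.9, 51.4 and 67.0 CPM in MEF 1, 2 and 3. ESC medium gave 40.4, 91.1 and 45.8 CPM in XEN 1, 2 and 7, and 88.3, 128, 73.6 and 177 CPM in iXEN 1, 2, 6 and 9. XEN medium gave 51.1, 44.1 and 105 CPM in XEN 1, 2 and 7, and 69.3, 44.2, 35.0 and 31.3 CPM in iXEN 1, 2, 6 and 9. The 4 iXEN libraries in ESC medium all lay above MEF, where the mean was 117 ± 46.5 CPM against 59.5 ± 7.81 CPM (SD, n = 4 and 3). Tet3 rose there by 1.003 on the log2 scale (SE 0.304, adjusted p = 0.0255). This call was lost without MEF 1 (adjusted p = 0.0791), MEF 2 (0.0899), MEF 3 (0.0574) or iXEN 2 (0.0521). The other differences were 0.05 (95% interval -0.79 to 0.89) in XEN cells in ESC medium and -0.34 (-1.01 to 0.33) and 0.22 (-0.63 to 1.06) in iXEN and XEN cells in XEN medium. With the length correction Tet3 was called higher in all 4 groups, at 1.25 (adjusted p = 0.00324), 1.11 (0.0127), 0.68 (0.0473) and 1.08 (0.0215) in iXEN and XEN cells in ESC medium and iXEN and XEN cells in XEN medium, and in iXEN cells in XEN medium this turned its direction.

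Tet2, a TET enzyme known from blood cells, was lower than MEF in 12 of the 14 libraries. It measured 24.1, 17.7 and 31.7 CPM in MEF 1, 2 and 3. In XEN 1, 2 and 7 under ESC medium the level was 7.66, 15.7 and 2.79 CPM, and in iXEN 1, 2, 6 and 9 it was 14.1, 17.8, 6.41 and 22.9 CPM. In XEN 1, 2 and 7 under XEN medium the level was 6.91, 5.25 and 12.2 CPM, and in iXEN 1, 2, 6 and 9 it was 6.46, 12.1, 0.511 and 3.996 CPM. Tet2 fell in XEN cells in XEN medium by 1.54 on the log2 scale (SE 0.398, adjusted p = 0.0214), a call that was lost with the length correction (-0.79, adjusted p = 0.0899) and without MEF 1 (0.0675), MEF 3 (0.0845) or XEN 1 (0.0545). In the other groups the log2 difference was -0.65 (95% interval -1.58 to 0.27) in iXEN and -1.44 (-2.95 to 0.07) in XEN cells in ESC medium and -1.99 (-3.95 to -0.03, adjusted p = 0.105) in iXEN cells in XEN medium. Tet2 was called at -2.01 in XEN cells in ESC medium without XEN 2 (adjusted p = 0.0401) and at -2.69 in iXEN cells in XEN medium without iXEN 2 (0.0443). Without iXEN 2 and 9 it was called there at -2.82 (0.0486), so that the 9 genes then gave 3 higher and 2 lower calls. In that fit the calls over all genes rose from 4708 to 7440.

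Tet1, a TET enzyme abundant in embryonic stem cells, varied more between libraries of a group than between groups. It measured 13.0, 8.43 and 17.9 CPM in MEF 1, 2 and 3. In ESC medium it measured 5.69, 49.3 and 0.60 CPM in XEN 1, 2 and 7, and 45.7, 47.6, 4.24 and 51.6 CPM in iXEN 1, 2, 6 and 9. In XEN medium it measured 11.5, 13.9 and 2.51 CPM in XEN 1, 2 and 7, and 36.7, 8.83, 7.13 and 3.88 CPM in iXEN 1, 2, 6 and 9. Over the 14 XEN and iXEN libraries the highest level was 85.9-fold the lowest, against 5.73-fold for Dnmt3b and 4.09-fold for Dnmt1. None of its 4 tests against MEF was called, with log2 differences of 1.53 (95% interval -0.10 to 3.16) and 0.54 (-2.56 to 3.64) in iXEN and XEN cells in ESC medium and 0.14 (-1.57 to 1.84) and -0.45 (-1.99 to 1.10) in iXEN and XEN cells in XEN medium. Without iXEN 6, which held 4.24 CPM, Tet1 was called in iXEN cells in ESC medium at 1.91 (adjusted p = 0.000767), and with the length correction at 1.65 (adjusted p = 0.0327). In XEN cells in XEN medium the length correction turned its direction to 0.74.

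**Figure D3:**
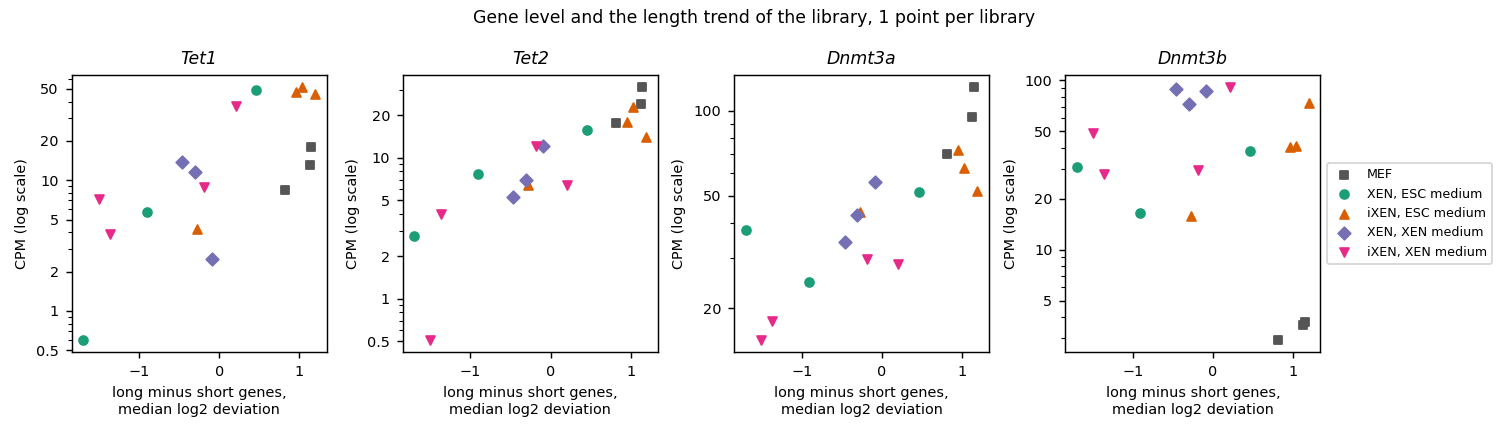
Level of Tet1, Tet2, Dnmt3a and Dnmt3b in CPM (log axis) against the median log2 deviation of transcripts over 8000 bases minus that of transcripts under 1500 bases, 1 point a library, coloured by group. The lowest Tet1 level, 0.60 CPM in XEN 7 in ESC medium, and the lowest Tet2 level, 0.511 CPM in iXEN 6 in XEN medium, are in the libraries at -1.70 and -1.51, while Dnmt3b held 49.2 CPM in the library at -1.51 and 73.1 CPM in that at 1.20.

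The lowest levels of Tet1 and Tet2 were in libraries where long transcripts as a whole were low. XEN 7 in ESC medium had the lowest long-minus-short deviation of the 17 libraries, -1.70, and iXEN 6 in XEN medium the next, -1.51. Within the sum of the 3 TET genes in CPM per kb, Tet3 made up 56.7 to 65.2% in MEF and 61.9 to 92.4% in the other libraries. Tet2 made up 26.7 to 31.8% in MEF. The part of transcript length in the differences between libraries was not tested beyond the length-corrected fits.

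Tdg held 1 to 16 counts per library, at most 0.608 CPM, and was the lowest of the 9 genes in every group. Its counts summed to 10 in MEF, to 12 and 15 in XEN and iXEN cells in ESC medium and to 25 and 41 in XEN and iXEN cells in XEN medium. In 66.3% of its 50-base windows the Tdg transcript is identical to another transcript, among them Tdg-ps with 47.4%, and Tdg-ps is not analysed here. Reads that match several places made up 13.7 to 24.6% of each library, counted outside the genes. The level listed for Tdg is therefore uncertain, and no fold is given for it.

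Base excision repair was followed as 12 tested genes, a list that holds other glycosylases besides the enzymes that act after TDG. Of the 12, 4 rose in iXEN and 2 in XEN cells in ESC medium, 4 in iXEN and 3 in XEN cells in XEN medium, and 0 fell, where 20.8%, 11.4%, 17.7% and 23% of all genes tested were called higher. The median log2 fold change of the 12 was 0.34, 0.19, 0.56 and 0.57, beside 0.03, -0.03, 0.06 and 0.02 over all genes. Ung, the glycosylase that removes uracil from DNA, measured 5.37 ± 1.31 CPM in MEF (n = 3), 28.0 ± 7.53 in XEN (n = 3) and 14.4 ± 3.49 in iXEN cells (n = 4) in ESC medium, and 23.6 ± 9.39 in XEN (n = 3) and 37.7 ± 12.5 in iXEN cells (n = 4) in XEN medium (SD). It rose in all 4 groups, by 1.45 (adjusted p = 0.00508) and 2.45 (0.00966) in iXEN and XEN cells in ESC medium and by 2.88 (0.00337) and 2.18 (0.00573) in iXEN and XEN cells in XEN medium. Lig3, a DNA ligase of this pathway, rose by 1.25 in iXEN cells in ESC medium (adjusted p = 0.00102) and by 1.02 in XEN cells in XEN medium (0.0108). Neil2, a glycosylase for oxidised bases, rose by 2.48 in iXEN cells in ESC medium (adjusted p = 0.0249). Nthl1, another such glycosylase, rose by 1.30 in iXEN cells in XEN medium (adjusted p = 0.0378), a call lost with the length correction (0.271). Polb, the polymerase that fills the gap, rose by 1.01 (adjusted p = 0.0344), 1.69 (0.00955) and 1.28 (0.0143) in XEN cells in ESC medium and in iXEN and XEN cells in XEN medium. Its first call was lost without XEN 1 (0.0552), and its first and last calls were lost with the length correction (0.26 and 0.0598).

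Ranked by mean CPM per kb, Dnmt1 and Uhrf1 held the first and second places in all 5 groups, at 24.8 to 41.7 for Dnmt1 and 21.2 to 41.0 for Uhrf1. In MEF they were followed by Dnmt3a (9.86), Tet3 (5.45), Tet2 (2.67), Tet1 (0.914) and Dnmt3b (0.793), with Dnmt3l (0.0737) and Tdg last. In XEN and iXEN cells Dnmt3b stood next to Tet3 right behind them, at 6.61 CPM per kb in XEN and 9.88 in iXEN cells for ESC medium and at 19.11 and 11.4 for XEN medium. Dnmt3a followed this pair there, at 2.37 to 5.95 CPM per kb. For each gene the groups that neighbour each other in the order of their means overlapped, except Dnmt3b in XEN cells in ESC medium and in MEF.

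**Figure D4:**
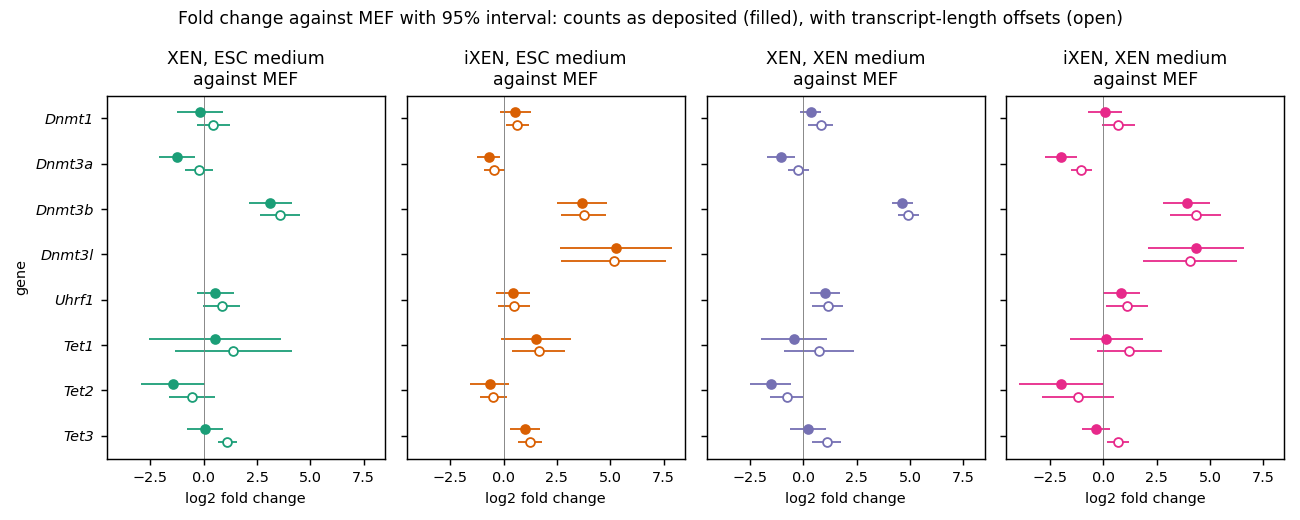
Log2 fold change against MEF of the 8 genes other than Tdg in 4 panels, 1 for each group of XEN or iXEN cells, with 95% intervals (edgeR); filled points are counts as deposited and open points are fits with length offsets. Dnmt3b lies at 3.12 to 4.64 over the panels and at 3.57 to 4.92 with the offsets, whereas Dnmt3a moves from -1.98 to -0.70 up to -1.03 to -0.21.

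Induced and line-derived cells were compared within a medium to ask whether iXEN cells match XEN cells. In neither medium was any gene called: edgeR gave 0 of 12944 genes (0%) in ESC medium and 0 of 13263 (0%) in XEN medium. At an unadjusted p under 0.05 there were 1770 (13.7%) and 544 genes (4.10%), and DESeq2 called 393 and 75. For the 9 genes the intervals were wide. In ESC medium, iXEN minus XEN was 0.96 for Tet3 (95% interval 0.02 to 1.90, adjusted p = 0.365), 0.57 for Dnmt3a (-0.15 to 1.29), 0.56 for Dnmt3b (-0.62 to 1.73), 0.73 for Dnmt1 (-0.36 to 1.81), -0.12 for Uhrf1 (-1.06 to 0.83), 0.79 for Tet2 (-0.67 to 2.25) and 1.01 for Tet1 (-1.88 to 3.90). Under the length correction the difference for Dnmt3a turned to -0.099 (-0.70 to 0.50), and those for Tet3, Tet2 and Tet1 were 0.26, 0.20 and 0.44. In XEN medium, Dnmt3a was lower in iXEN cells by a log2 difference of -0.94 (SE 0.351, 95% interval -1.75 to -0.14, adjusted p = 0.985), and its 4 iXEN libraries, at 15.4 to 29.9 CPM, lay below its 3 XEN libraries, at 34.3 to 55.9 CPM. The length correction left it at -0.74 (95% interval -1.34 to -0.14, adjusted p = 0.989). Groups that do not overlap made up 4.49% of the genes tested there. Dnmt3b differed in XEN medium by -0.75 (95% interval -1.71 to 0.22). In ESC medium 9.93% of tested genes had libraries that did not overlap, and Dnmt3l, which did, was 0.816 to 12.7 CPM in iXEN and 0.0261 to 2.57 CPM in XEN libraries, and the difference of 2.44 had an interval of -1.07 to 5.95.

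The change of medium was read within each cell type, XEN medium minus ESC medium. In XEN cells, edgeR called 0 of 13241 genes (0%), with 746 (5.63%) at an unadjusted p under 0.05 and 63 called by DESeq2. Dnmt3b showed the clearest difference of the 9 genes, with 72.5 to 88.7 CPM in XEN medium against 16.4 to 38.5 CPM in ESC medium. The groups did not overlap, as for 12.5% of all tested genes. The log2 difference was 1.502 (SE 0.368, 95% interval 0.63 to 2.38, adjusted p = 0.80) and 1.39 with the length correction. That all 3 numbers were higher in XEN medium, by 2.30-fold to 4.41-fold, follows from the lack of overlap. Uhrf1 was higher in XEN medium in 3 of 3 numbers, by 1.18-fold to 1.67-fold, with a log2 difference of 0.43 that was not called. The other differences in XEN cells were 0.51 for Dnmt1, 0.19 for Dnmt3a, 0.15 for Tet3, -0.13 for Tet2 and -1.01 for Tet1, whose 95% interval ran from -4.25 to 2.24. Dnmt3l was higher in XEN medium in 3 of 3 numbers, by 1.51-fold to 9.21-fold, with a log2 difference of 0.89 (95% interval -3.19 to 4.97). These folds rest on few counts, with 3 in ESC and 45 in XEN medium for XEN 2, and 1 and 5 for XEN 7. Only number 7 clearly paired the media, and another pairing could give other directions for Uhrf1 and Dnmt3l.

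In iXEN cells the clearest differences between media were those of Dnmt3a and Tet3. EdgeR called 0 of 12920 genes (0%), with 3018 at an unadjusted p under 0.05, 23.4% of those tested, and DESeq2 called 1536. Dnmt3a was lower in XEN medium, and its groups did not overlap, as for 12% of all tested genes. Any pairing of the libraries then gives the same direction. Its 4 of 4 lower numbers, at 0.286-fold to 0.55-fold, therefore add no support. Its log2 difference was -1.31 (SE 0.295, 95% interval -1.97 to -0.64, adjusted p = 0.0681). DESeq2 gave an adjusted p of 0.00249 for it, a fit over all 17 libraries 0.0449, and fits without iXEN 6 in ESC medium or iXEN 2 in XEN medium 0.0489 and 0.0492. Tet3 was also lower without overlap, which again fixes its 4 of 4 lower numbers, at 0.176-fold to 0.784-fold. The log2 difference of Tet3 was -1.36 (SE 0.355, 95% interval -2.15 to -0.56, adjusted p = 0.0882). DESeq2 gave Tet3 an adjusted p of 0.00969.

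The other TET genes pointed the same way in iXEN cells with wider intervals. Tet2 was lower in XEN medium in 4 of 4 numbers, with a log2 difference of -1.38 (95% interval -3.11 to 0.35), and Tet1 in 3 of 4, with -1.39 (-3.24 to 0.46). The numbers of iXEN libraries are not known to pair the media, and another pairing could give other counts. Dnmt3b differed by 0.22, Uhrf1 by 0.41, Dnmt1 by -0.48 and Dnmt3l by -0.94, and none was called. The long-minus-short deviation was also lower in XEN medium, at -1.51 to 0.21 against -0.28 to 1.20 in ESC medium. With the length correction the differences were -0.65 for Dnmt3a (adjusted p = 0.183), -0.63 for Tet3 (0.224), -0.76 for Tet2 (0.577) and -0.52 for Tet1 (0.7).

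Whether the medium acted differently in iXEN and XEN cells was tested as an interaction. EdgeR called 0 of 14357 genes (0%), with 2131 (14.8%) at an unadjusted p under 0.05 and 466 called by DESeq2. The difference of the log2 differences, iXEN minus XEN, was -1.52 for Dnmt3a (SE 0.459, 95% interval -2.51 to -0.52, adjusted p = 0.233), -1.53 for Tet3 (adjusted p = 0.286) and -1.29 for Dnmt3b (adjusted p = 0.386). Under the length correction these were -0.67 (95% interval -1.41 to 0.08, adjusted p = 0.473), -0.64 (-1.54 to 0.26, 0.566) and -0.91 (-2.30 to 0.49, 0.597). Without both libraries of XEN 7 the difference for Tet3 was -0.88.

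**Figure D5:**
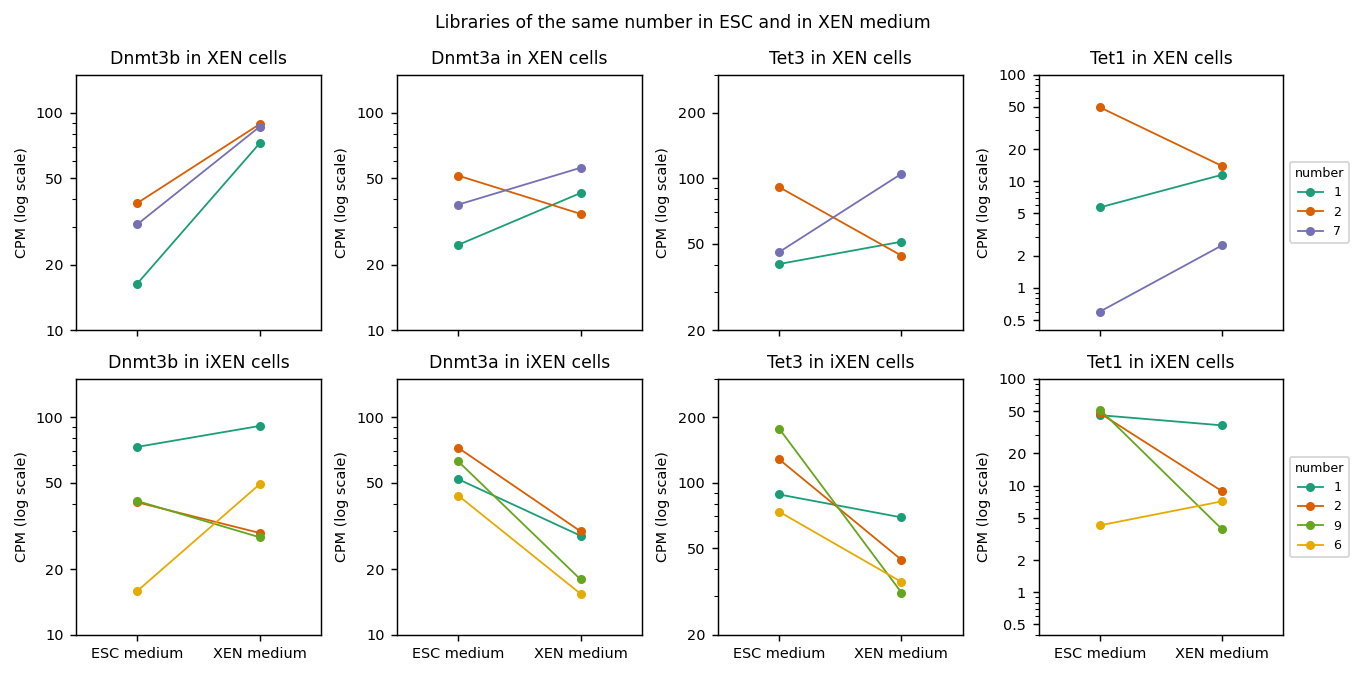
Level of Dnmt3b, Dnmt3a, Tet3 and Tet1 in CPM (log axis) in ESC and XEN medium, with a line joining libraries of the same number, XEN cells in the top row and iXEN cells in the bottom row. All 3 Dnmt3b lines of XEN cells go up, and all 4 Dnmt3a and Tet3 lines of iXEN cells go down, where the number is only a number. These groups do not overlap, so any joining of their libraries would give the same directions.

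Partners of the methyltransferases in recruitment and gene silencing were listed together, and not all of them bring the enzymes to chromatin. The 14 tested showed 1 higher and 1 lower call in iXEN cells and 0 higher and 1 lower in XEN cells in ESC medium, then 3 higher and 1 lower in iXEN cells and 5 higher and 1 lower in XEN cells in XEN medium. Of all genes tested, 11.4 to 23% were called higher and 13.7 to 25.9% lower in these comparisons. The median log2 fold change of the 14 was 0.24, -0.26, 0.02 and 0.15. Hells, a chromatin remodeller needed for DNA methylation, measured 25.9 ± 4.5 CPM in MEF (SD, n = 3) and rose by 1.61 in iXEN cells in ESC medium (adjusted p = 0.0077), by 2.25 in iXEN cells in XEN medium (0.0334) and by 2.51 in XEN cells in XEN medium (0.00281). Its partner Cdca7 rose by 1.72 in iXEN (adjusted p = 0.0102) and 1.44 in XEN cells (0.0119) in XEN medium. Pcna, the replication clamp that binds DNMT1, rose by 1.16 in iXEN (adjusted p = 0.0212) and 1.31 in XEN cells (0.00998) in XEN medium, the former call being lost with the length correction (0.112). The lower calls were the histone deacetylase Hdac2, by -0.82 in iXEN cells in ESC medium (adjusted p = 0.00793), the H3K36 methyltransferase Nsd1, by -1.06 in XEN cells in ESC medium (0.0146), and the H3K9 methyltransferase Ehmt1, by -0.86 in iXEN (0.0194) and -0.65 in XEN cells (0.0246) in XEN medium, the latter named after its value was seen. With the length correction the Nsd1 difference was 0.22 (0.612) and Ehmt1 lost both calls (0.38 and 0.468). Without iXEN 2 and 9 in XEN medium, the libraries with fibroblast markers, the count there was 5 higher and 3 lower, while calls over all genes rose from 4708 to 7440. Without XEN 1 in ESC medium it was 2 higher and 2 lower, with 3779 calls over all genes in place of 3507.

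Proteins grouped as readers of methylated DNA, 10 tested, were called 2 higher and 1 lower in iXEN cells and 0 higher and 1 lower in XEN cells in ESC medium, and 1 higher and 3 lower in each cell type in XEN medium. Shares over all genes tested were 20.8% higher and 25.9% lower, 11.4% and 13.7%, then 17.7% and 14.9% in iXEN and 23% and 24.5% in XEN cells in XEN medium. The median log2 fold change of the 10 was -0.42, -0.61, -0.96 and -0.58, below that of all genes in each comparison. Mbd4, which is also a glycosylase that removes thymine from G:T mismatches, rose by 1.51 in iXEN cells in ESC medium (adjusted p = 0.00676) and by 1.55 in iXEN (0.0114) and 1.67 in XEN cells (0.00378) in XEN medium. Mbd5, a member by its domain that is not known to bind methylated DNA, fell by 1.83 in iXEN (adjusted p = 0.0188) and 1.68 in XEN cells (0.00454) in XEN medium. Its relative Mbd6 rose by 0.82 in iXEN cells in ESC medium (adjusted p = 0.0258). The zinc finger reader Zbtb4 fell by 1.14 in iXEN (adjusted p = 0.0232) and 1.15 in XEN cells (0.0292) in ESC medium, and both calls were lost with the length correction (0.0946 and 0.657). Its relative Zbtb38 fell by 2.50 in XEN cells in XEN medium (adjusted p = 0.0239). Under the length correction 2 higher and 1 lower, 0 and 0, 1 and 0, and 1 and 2 calls were left in the order iXEN and XEN in ESC medium, iXEN and XEN in XEN medium.

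Cofactors and partners of the TET reaction, a list of 16 with 14 tested that also holds cytidine deaminases, gave 1 higher and 7 lower calls in iXEN cells and 0 higher and 2 lower in XEN cells in ESC medium, and 0 higher with 1 lower in iXEN and 3 lower in XEN cells in XEN medium. Among all genes tested, 20.8% were called higher and 25.9% lower, 11.4% and 13.7%, 17.7% and 14.9%, and 23% and 24.5% in this order. The median log2 fold change was -0.83, -0.47, -0.04 and -0.46. Deaminases were among the called members in 3 of the 4 comparisons, and they are not enzymes of the TET reaction. Apobec3, an antiviral deaminase, fell by 2.86 in iXEN cells in ESC medium (adjusted p = 8.5e-05) and by 2.32 in XEN cells in XEN medium (0.0455). Apobec1, an RNA-editing deaminase, measured 18.6 ± 4.98 CPM in MEF (SD, n = 3), with means of 0.142 CPM in iXEN and 1.67 CPM in XEN cells in ESC medium and 0.781 CPM in XEN cells in XEN medium, and it fell in these 3 groups (adjusted p = 0.000149, 0.00936 and 0.0121). In iXEN cells in XEN medium it ranged from 0.038 to 41.0 CPM. Summed CPM of 10 macrophage markers was 76.4 to 251 in MEF and at most 27.6 elsewhere, and its part in the level of Apobec1 was not tested. Idh1, which makes the 2-oxoglutarate that TET enzymes use, measured 298 ± 41.9 CPM in MEF (SD, n = 3) and fell by 1.37 in XEN cells in ESC medium (adjusted p = 0.0132) and by 0.78 in XEN cells in XEN medium (0.0144). Cxxc5, a CXXC protein related to the DNA-binding part of TET2, fell by 2.19 in iXEN cells in XEN medium (adjusted p = 0.00367), and its relative Cxxc4 fell by 4.27 in iXEN cells in ESC medium (0.00281). Without iXEN 2 and 9 in XEN medium the calls there were 1 higher and 5 lower, while calls over all genes rose from 4708 to 7440.

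The supply of methyl groups, 13 tested genes of the folate and methionine cycles, was called in both directions: 4 higher and 3 lower in iXEN and 1 higher and 3 lower in XEN cells in ESC medium, 2 and 2 in iXEN and 3 and 2 in XEN cells in XEN medium. Over all genes tested, 20.8% were called higher and 25.9% lower, 11.4% and 13.7%, 17.7% and 14.9%, and 23% and 24.5% in this order. Shmt1, the cytosolic enzyme that loads carbon from serine onto folate, measured 11.4 ± 0.236 CPM in MEF (SD, n = 3) and rose in all 4 groups, by 2.28 (adjusted p = 0.000127), 2.42 (0.0104), 2.61 (0.0107) and 2.93 (0.00285) in the order iXEN and XEN in ESC medium, iXEN and XEN in XEN medium. Mat2b, the regulatory subunit of the enzyme that makes S-adenosylmethionine, fell by 1.10 in iXEN (adjusted p = 0.000958) and by 0.91 in XEN cells (0.032) in ESC medium and by 1.30 in iXEN cells in XEN medium (0.00494). Its call in XEN cells in ESC medium was lost without XEN 1 (0.0544). Ahcyl1, a relative of the enzyme that clears S-adenosylhomocysteine, fell by 1.10 in iXEN (adjusted p = 0.00124) and 1.54 in XEN cells (0.0297) in ESC medium and by 1.55 in XEN cells in XEN medium (0.00281), and the call in XEN cells in ESC medium was lost without XEN 1 (0.0615). Mthfd1, a folate enzyme, rose by 1.51 in iXEN cells in XEN medium (adjusted p = 0.0191). Without iXEN 2 and 9 in XEN medium the calls there were 5 higher and 3 lower, while calls over all genes rose from 4708 to 7440. Without XEN 1 in ESC medium they were 2 higher and 0 lower, with 3779 calls over all genes in place of 3507.

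Germline genes that DNA methylation is known to keep silent in body cells were set beside the enzymes, and 19 of the 20 listed were found. Most were too low to test, with 4, 5 or 7 tested in a comparison with MEF, and these had passed through the group where they were high. Tex19.1 held 1 count over the 3 MEF libraries. Over the others its ratio to MEF was 1979 (95% counting interval 355 to 78179) in iXEN and 1729 (310 to 68316) in XEN cells in ESC medium, and 1560.4 (279.8 to 61658) in iXEN and 2733 (490.2 to 107979) in XEN cells in XEN medium. Libraries differed widely, from 0.116 to 74.9 CPM among the iXEN libraries in XEN medium. Rhox6, a homeobox gene of the X chromosome, held 2 counts in MEF and had ratios in iXEN cells of 529 (146 to 4371) under ESC medium and 508 (140.3 to 4196) under XEN medium. Ddx4, the germ cell RNA helicase, was the reverse: it held 1099 counts over the 3 MEF libraries, at 13.3 ± 5.28 CPM (SD), against 2 counts in XEN and 3 in iXEN cells in XEN medium. Tdrkh, a tudor domain protein of germ cells, fell by 4.31 in iXEN cells in ESC medium (edgeR, adjusted p = 0.000319).

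In the comparisons of iXEN with XEN cells and of the media, 0 members of these lists were called. In ESC medium, iXEN against XEN, the smallest adjusted p were those of Nsd1 (log2 difference 1.10, adjusted p = 0.316), Apobec1 (-3.60, 0.319) and Tdrkh (-3.46, 0.326). In XEN medium they were all 0.985. Between media in iXEN cells they were those of Ung (1.41, 0.0744), Mtr (-2.09, 0.0969) and Hdac2 (0.89, 0.102). Between media in XEN cells Hells (1.53) and Cdc6 (1.20) had an adjusted p of 0.8.

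The genes with the pattern most like a member were ranked by the root mean square difference of log2 CPM, after centring, over the 17 libraries. Nearest to Dnmt3b were Trim6 (0.467), Cdc6 (0.512) and Hmgn5 (0.589), beside a spread of 1.58 for Dnmt3b itself. Trim6, a tripartite motif protein, measured 1.41 ± 0.472 CPM in MEF (SD, n = 3) and had group means of 14.4 to 33.2 CPM in XEN and iXEN cells. Nearest to Dnmt3a were Ctnnd1 (0.322), Spag9 (0.343) and Kif16b (0.346), beside its own spread of 0.779. Nearest to Dnmt3l were Camk2a (0.970), Icosl (1.06) and Hdc (1.12), beside 2.13, and Icosl is its neighbour on the chromosome, 5746 bases away. Icosl measured 1.26 ± 0.121 CPM in MEF (SD, n = 3) with group means of 6.7 to 24.5 CPM elsewhere. Nearest to Tet1 were Vps13c (0.675), Gm17296 (0.749) and L3mbtl3 (0.754), beside 1.69, and nearest to Tet2 were Hdac4 (0.563), Crebbp (0.662) and Dvl3 (0.679), beside 1.36. These are descriptions of 17 libraries that share depth and length differences.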

How the data were processed

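RNA was extracted with Trizol and made into mRNA libraries with a TruSeq kit, per the labels' protocols. The submitters' processing notes name FastQC 0.11.3, Trimmomatic 0.32, TopHat2 2.0.12, HTSeq 0.6.1 and genome build mm9. No source used here gives their order, the annotation or the strand setting. The deposited values are raw counts per gene, made by the authors, 1 table per library, with lines for reads not assigned to a gene that held 20.8 to 33.1% of each table and were left out.

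Counts were tested in R 4.3.3 with edgeR 4.0.16 (TMM, filterByExpr with 10 and 15 counts, quasi-likelihood test, Benjamini-Hochberg over all genes tested), with only the libraries of the groups compared in each fit, and with DESeq2 1.42.0 as an alternative. SEs were taken from the log2 fold change and its F value. CPM used TMM factors over the 17 libraries, 0.863 to 1.16. Intervals and floors of few counts cover counting error only. Transcript lengths came from GENCODE M21 for 98.4% of genes, and length offsets removed the trend of log2 counts with length in each library. The scripts were tested on simulated data.

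Groups followed the labels. Same-numbered XEN libraries had correlations of deviations from group means between the media of 0.241, 0.394 and 0.643 for 1, 2 and 7. Library 2 in ESC medium correlated better with 1 in XEN medium (0.450), so that only number 7 clearly paired the media. A fit of the media in XEN cells with number as a block called 0 genes too. The genes and lists were chosen with earlier results of these data known. Named from each list are the 3 called members with the smallest adjusted p in a comparison with MEF, and in the other comparisons only the smallest over all lists. Some list members that this rule names are not reported here. Genes like a member were ranked for members whose group means span 4-fold or more. Rhox5, of the germline list, was not analysed here. Alternatives were another normalization, other filters, DESeq2, 1 fit over all libraries, a number block, leaving out libraries, and, chosen after seeing the data, length and GC offsets and a newer form of the edgeR fit.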

Additional observations from a re-analysis of the deposited data

Results flagged for a closer look

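Of 18 groups of 4 libraries examined for a library far from the others (9 genes in iXEN cells in both media), 2 stood out, both for Tet1, and chance alone gives about 1 in 20 groups. In iXEN cells in ESC medium, library 6 held 4.24 CPM of Tet1, and the gap to the nearest other library was 0.877 of the whole range. In iXEN cells in XEN medium, library 1 held 36.7 CPM, and the gap was 0.849 of the range. Both shares lie above Dixon's limit for 4 libraries.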

How the results depend on the processing

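Depth left Dnmt3l in MEF near the 3 counts taken as a floor, and Tdg had at most 16 counts in a library. The 3 to 4 libraries of a group limited every comparison. Of the fits on the 9 genes without leaving out a single library, 691 kept direction and side of the threshold, 19 lost a call, 15 gained one and 36 turned direction. Of those leaving out 1 library the numbers were 462, 28, 7 and 35. Over both kinds of fit, results called in the main fit kept their call in 170 fits and lost it in 47. The other 983 fits that kept direction and side were of results not called. Every value that turned direction was of a difference that was not called. Of the counts of called genes, 76 of 98 stayed within 1.5 times.

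Calls of all genes against MEF were 3507 in XEN cells in ESC medium, with 5480 by DESeq2, 1303 with the number as a block and 372 to 6056 leaving out 1 library. In iXEN cells in XEN medium they were 4708, with 0 under the block, 7440 without iXEN 2 and 9 and 1842 to 5663 leaving out 1 library. Leaving out 1 library gave 3985 to 8965 for XEN cells in XEN medium and 5064 to 8081 for iXEN cells in ESC medium. In the comparisons with 0 calls, iXEN with XEN cells in ESC medium gave 393 by DESeq2, 5 with no filter, 9 with the block, 43 with the newer fit and 0 to 49 leaving out 1 library (XEN 2 49, XEN 7 35), and in XEN medium 75 by DESeq2, 3 with the newer fit and 0 leaving out 1 library. Media in XEN cells gave 63 by DESeq2 and 0 leaving out 1 library. Media in iXEN cells gave 1536 by DESeq2, 65 with a filter of 1 CPM, 330 with all 17 libraries in 1 fit, 263 with the newer fit, 5 with length and 6 with length and GC offsets, 1 without iXEN 2 and 9 and 0 to 416 leaving out 1 library (iXEN 6 in ESC medium 416, iXEN 2 in XEN medium 346). The interaction gave 466 by DESeq2, 1 with the block, 60 with the newer fit, 1 with block and length offsets and 0 leaving out 1 library. With MEF and iXEN cells the numbers are only numbers: same-numbered iXEN libraries correlated by 0.159, 0.189, 0.132 and -0.0623 for 1, 2, 6 and 9, and not every one correlated best with its own number. With all 17 libraries in 1 fit, calls against MEF were lost for Dnmt3a (adjusted p = 0.0983) and Tet3 (0.0761) in iXEN cells in ESC medium, Dnmt3l (0.0511) in iXEN cells in XEN medium and Uhrf1 (0.0886) and Tet2 (0.166) in XEN cells in XEN medium, and with no filter for Dnmt3a (0.0614) in iXEN cells in ESC medium. Under the block Dnmt3a (adjusted p = 0.202), Dnmt3b (0.158) and Dnmt3l (0.241) were not called in iXEN cells in XEN medium, nor was Dnmt3a in ESC medium in iXEN (0.304) and XEN cells (0.211), and Tet1 was called in iXEN cells in ESC medium at 2.19 (0.00252).

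With library size as the only scaling, the turned log2 differences were -0.044 for Tet3 (XEN in ESC medium against MEF), 0.0032 for Uhrf1 (iXEN against XEN in ESC medium) and 0.0038 for Tet2 (the media in XEN cells). With length offsets they were 0.44 for Dnmt1 (XEN in ESC medium against MEF), 0.68 for Tet3 (iXEN in XEN medium against MEF), 0.74 for Tet1 (XEN in XEN medium against MEF), -0.099 for Dnmt3a (iXEN against XEN in ESC medium), -0.025 for Dnmt3a and -0.028 for Tet3 (the media in XEN cells) and 0.21 for Uhrf1 and 0.16 for Tet1 (the interaction). With length and GC offsets they were 0.39 for Dnmt1 (XEN in ESC medium against MEF), 0.77 for Tet3 (iXEN in XEN medium against MEF), 0.49 for Tet1 (XEN in XEN medium against MEF), -0.10 for Dnmt3a (iXEN against XEN in ESC medium), 0.072 for Dnmt1 (the media in iXEN cells) and 0.18 for Uhrf1 and 0.25 for Tet1 (the interaction). With the number as a block they were 0.042 for Tet3 (iXEN in XEN medium against MEF), 0.31 for Tet1 and -0.18 for Tet3 (XEN in XEN medium against MEF), 0.51 for Uhrf1 (iXEN against XEN in ESC medium), 0.57 for Tet2 and 0.24 for Tet3 (iXEN against XEN in XEN medium) and 0.42 for Tet1 and 0.059 for Tet2 (the media in XEN cells). With the block and length offsets they were -0.011 for Dnmt3a, 0.17 for Tet1 and -0.097 for Tet3 (the media in XEN cells) and 0.14 for Uhrf1 (the interaction). Without iXEN 2 and 9 in XEN medium they were 0.082 for Dnmt1 and 0.28 for Uhrf1 (iXEN against XEN in XEN medium) and 0.40 for Uhrf1 and 0.23 for Tet1 (the interaction). With RLE size factors the value was 0.0042 for Uhrf1 (the interaction). By DESeq2 it was 0.0042 for Uhrf1 (the interaction). Leaving out 1 library at a time turned further differences that were not called, and their ranges were -0.62 to 0.19 for Dnmt1, -1.84 to 1.14 for Tet1 and -0.25 to 0.26 for Tet3 (XEN in ESC medium against MEF), -0.18 to 0.27 for Dnmt1 and -0.87 to 0.44 for Tet1 (iXEN in XEN medium against MEF), -0.84 to 0.0076 for Tet1 and -0.27 to 0.46 for Tet3 (XEN in XEN medium against MEF) and -0.38 to 0.11 for Uhrf1 (iXEN against XEN in ESC medium). The ranges of the rest were -0.14 to 1.99 for Dnmt3l, -0.49 to 0.021 for Uhrf1 and -0.46 to 1.004 for Tet1 (iXEN against XEN in XEN medium), -0.013 to 0.47 for Dnmt3a, -0.48 to 4.45 for Dnmt3l, -1.57 to 1.499 for Tet1, -0.53 to 0.59 for Tet2 and -0.33 to 0.60 for Tet3 (the media in XEN cells), -0.26 to 0.59 for Dnmt3b and -1.68 to 0.079 for Dnmt3l (the media in iXEN cells) and -0.37 to 0.23 for Uhrf1 and -2.91 to 0.18 for Tet1 (the interaction).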
